A study of Mus musculus with 4 samples.

Results

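The PEA3 subfamily genes Etv1, Etv4 and Etv5 and 7 broadly expressed ETS family genes, Ets1, Ets2, Etv6, Elk1, Elk3, Elk4 and Gabpa, were examined for accessible chromatin in EpRas cells. For each of the 10 genes, every FAIRE-positive region that touched the gene body or the 50 kb upstream of it was taken. Merging the 4 region lists gave 50 regions at these loci, of 35796 merged regions in all. EpRas cells are EpH4 mouse mammary gland epithelial cells transformed with H-Ras, so the Ras oncogene was present in all 4 groups, the controls included. FAIRE-seq reads out nucleosome-poor DNA, which escapes crosslinking to protein, and is used to map accessible chromatin. One group was transfected with control siRNA (siControl) and left untreated. A further group was given siControl and 1 ng/ml TGF-β3. The remaining groups were given TGF-β at the same dose with siEtv4/5 set 1 or siEtv4/5 set 2, each of which targets both Etv4 and Etv5. All cells were harvested at day 4. Each group had 1 list of regions and no replicate list. The study describes biological replicates, and their reads may have been pooled before regions were called. No p-value was therefore computed, and all intervals below cover counting error only.

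ETS factors share a DNA-binding domain that recognises a GGAA core. The PEA3 proteins Etv1, Etv4 and Etv5 are activators that are phosphorylated by ERK downstream of Ras and are linked to branching growth and invasion of mammary epithelium. Their genes are known targets of the repressor Capicua (Cic), which is released from DNA when ERK signalling is on and which binds octamers that begin with TGAATG. Ets1 and Ets2 are ERK-responsive activators, Etv6 is a repressor, and Elk1, Elk3 and Elk4 are ternary complex factors that act with Srf at serum-responsive genes. Gabpa is the DNA-binding subunit of a complex that serves many housekeeping promoters.

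FAIRE measures the DNA of these genes and not their RNA, so it does not show how far the siRNAs lowered Etv4 and Etv5. The sequence of the Etv5 siRNA of set 2 is given in the labels. It is shown here because its target is a member and because its site was nearly kept in Etv1. The siRNA is antisense to a coding stretch in exon 11 of 13 of Etv5, on the minus strand at chr16:22392674-22392698 (mm10), and Etv5 was the only gene whose transcripts held the exact site. Capitals in the sites mark the base at which Etv1 differs from Etv5.
Etv5 siRNA of set 2: UUAAAUUCCAUGCCUCGGCCAGUCC
Etv5 mRNA site: ggactggCcgaggcatggaatttaa
Etv1 mRNA site: ggactggAcgaggcatggaatttaa
The Etv1 site lies in a coding exon present in 7 of 7 basic transcripts, on the plus strand at chr12:38857067-38857091, and matched the Etv5 site at 24 of 25 bases. The single difference was C8A, with the Etv5 base first and positions counted from 1 at the 5′ end of the mRNA site. The closest Etv4 site had 4 mismatches (T5A, A11G, C14A and A20G), and the closest sites of the other 7 members had 8 to 11. Over all annotated transcripts, 2 genes had a site with 1 mismatch, Etv1 and the gene model Gm5454. The effect of this siRNA on Etv1 RNA was not tested, and the other siRNA sequences of both sets were not analysed here.

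The promoters of the siRNA targets are shown because both lay in regions called in all 4 libraries and both carried the Capicua octamer. Regions were counted as promoter regions where their midpoint was no more than 2 kb from an annotated transcription start site (TSS). The Etv4 promoter region spans chr11:101785222-101785550 (mm10) and reaches from the upstream sequence into the first exon. The Etv5 promoter region spans chr16:22439593-22440096 and likewise covers the TSS. Printed are the 179 bases of the Etv4 region upstream of the TSS (chr11:101785372-101785550) and the 300 bases of the Etv5 region next to its TSS (chr16:22439720-22440019), both on the minus strand, 5′ to 3′, with the last base next to the TSS. Capitals mark matches to TGAATGNA (Capicua octamer), TGANTCA (AP-1), TGTGGT (RUNX) or CNGGAAG (ETS), searched on both strands.
Etv4 promoter: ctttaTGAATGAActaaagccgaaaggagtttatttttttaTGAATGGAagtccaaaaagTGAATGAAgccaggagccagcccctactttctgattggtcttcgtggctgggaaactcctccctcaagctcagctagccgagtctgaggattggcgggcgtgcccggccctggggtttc
Etv5 promoter: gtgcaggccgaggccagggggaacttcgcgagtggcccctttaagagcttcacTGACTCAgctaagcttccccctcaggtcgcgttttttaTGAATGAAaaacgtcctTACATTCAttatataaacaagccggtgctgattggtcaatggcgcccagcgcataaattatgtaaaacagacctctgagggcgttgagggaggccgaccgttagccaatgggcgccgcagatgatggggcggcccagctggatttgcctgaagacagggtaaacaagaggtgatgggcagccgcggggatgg
In the Etv4 sequence the 3 octamers TGAATGAA, TGAATGGA and TGAATGAA began 174, 138 and 119 bases upstream of the TSS, and there was no match to the other motifs. In the Etv5 sequence the octamer TGAATGAA began 209 bases upstream and a match on the opposite strand, read here as TACATTCA, began 192 bases upstream. An AP-1 match, TGACTCA, began 247 bases upstream of the Etv5 TSS. Neither sequence held the ETS motif. In the 300 bases upstream of the gene start, 1 or more octamers were found in 3.72% of 21911 protein-coding genes, 2 or more in 0.297% and 3 or more in 0.0913%, which is 20 genes. Among the 10 members, Etv4 had 3 octamers in that window, Etv5 had 2, and the other members had 0. A separate set of RefSeq promoter sequences covered 8 members, Etv5 included, but not Etv4 or Ets1. There the octamer was in 0 of 12 member promoters, against 3.82% of 32851 promoters. The Etv5 matches thus depend on the promoter sequence taken. These counts were made after the matches had been seen, and a match is a description of letters and not of binding.

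Across the 4 libraries the estimated depth was 15.3 M reads for the untreated cells and 16.3 M for the TGF-β-treated control, and set 1 and set 2 had 17.3 M and 20.7 M. The lists held 22247, 28754, 22516 and 14925 regions in that order, so the most deeply sequenced library gave the shortest list. The fold enrichment is the authors' ratio of the summit to the local background. Solving this ratio together with the deposited p-value gave the fragments under each summit, which are stated per 1 M reads of estimated depth (FPM) with an exact Poisson interval of 95%. At the 10587 regions called in all 4 lists, the median log2 ratio of FPM was 0.17 for TGF-β against untreated, -0.26 for set 1 against TGF-β and -0.71 for set 2 against TGF-β. These shifts run through the whole libraries, and the values of the members are read beside them. The promoters of 5 of 6 epithelial marker genes were called in 1 or more lists. Those of Krt8 and Krt14 were called in all 4, Krt18 in 3, Cdh1 in 2 and Epcam in 1. That of the basal keratin gene Krt5 was called in none. Of 6 genes that mark blood, endothelial or fibroblast cells, the promoters of 3 were called, each in 1 list, and those of Ptprc, Cd3e and Cdh5 in none. Over all protein-coding genes, 57.4% had a promoter called in no list.

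The untreated list held 27 regions at the 10 loci, the TGF-β list 44, the set 1 list 33 and the set 2 list 27. In each list 9 of the 10 loci had at least 1 region, against 65.2%, 68.3%, 64.3% and 55.2% of protein-coding genes. The median per locus was 3, 4, 2.5 and 2.5 regions, and 1 region over all protein-coding genes in each list. Windows differ in length, and the gap was smaller per 100 kb of window. There the members held 2.3, 3.7, 2.8 and 2.3 regions, against 1.7, 2.0, 1.6 and 1.1 over all protein-coding genes. Of the 50 merged regions, 15 were called in all 4 lists, 13 in 3, 10 in 2 and 12 in 1, and 7 of these 12 were in the TGF-β list. Over the whole series, 10587 of 35796 merged regions were called in all 4 lists, a similar share. The split of the other regions of the series is not given here. By position, 22 regions lay in introns, 21 lay outside the basic transcripts and 11 were at promoters of the members, classes that overlap. Only 4 regions were nearest to the TSS of a gene that is no member. These 4 lay upstream of Ets1, Elk1 and Gabpa. When every list was shortened to the 14925 regions of highest significance, the loci held 16, 19, 21 and 27 regions in the same order, so the order of the libraries turned with the length of the lists.

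**Figure D1:**
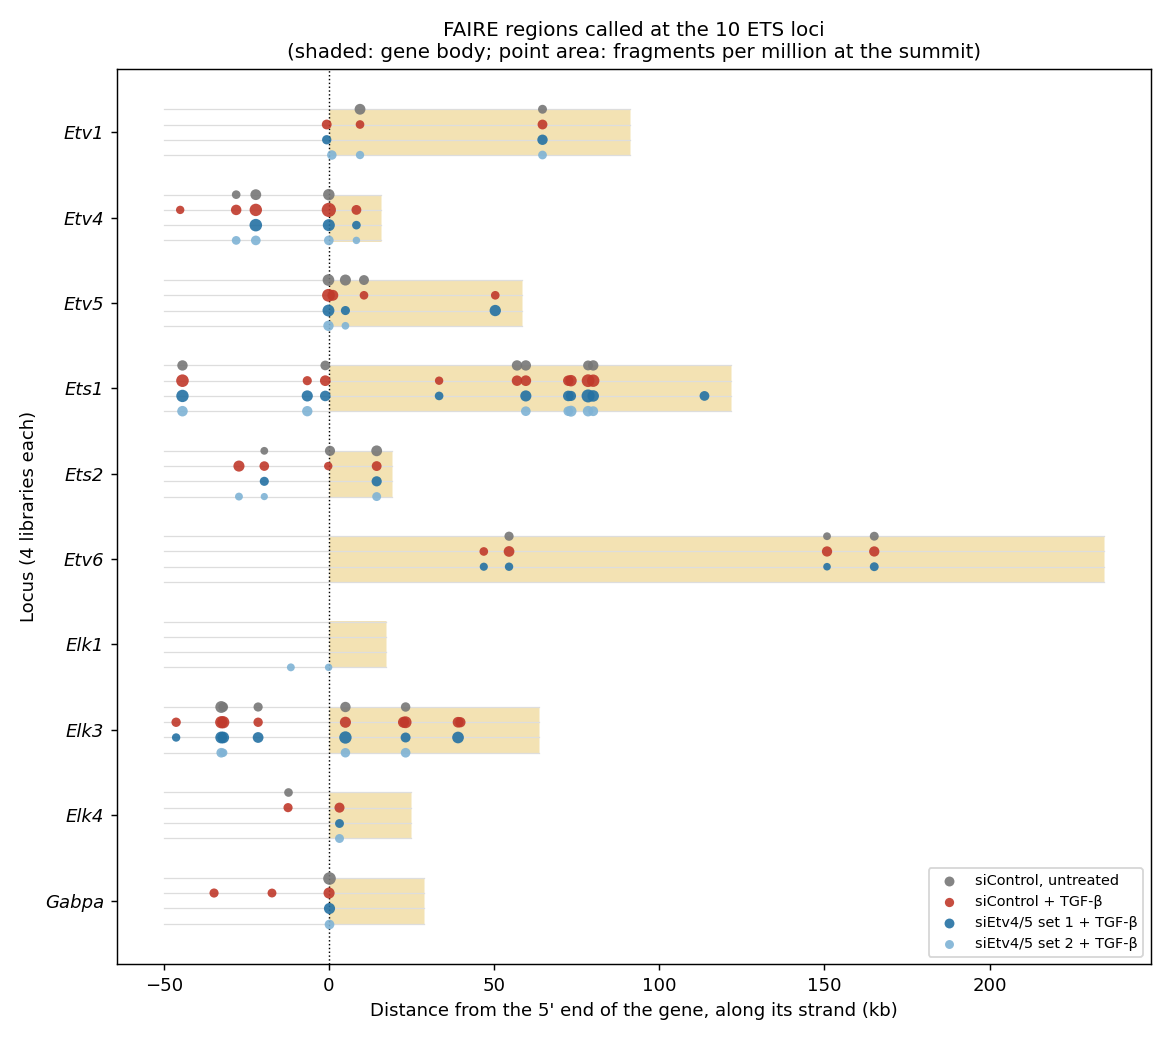
Regions at the 10 loci by distance from the 5′ end of the gene (kb, along its strand), with 4 rows per locus (from the top, untreated, TGF-β, then the siRNA sets 1 and 2), the gene body shaded and the area of each point proportional to FPM. The TGF-β rows hold 44 points in all, the Etv6 row of set 2 is empty, and Elk1 has points with set 2 only.

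Which regions differed between lists was asked for TGF-β first. Of the 44 regions with TGF-β, 19 had no overlap in the untreated list (43.2%), where the share over all regions of the TGF-β list was 37%. Of the 27 untreated regions, 2 had no overlap in the TGF-β list (7.41%), against 18.4% over all. Ets1 and Elk3 gave 4 each of the 19, and Etv4, Etv5, Ets2 and Gabpa gave 2 each. With set 1, 13 of the 44 TGF-β regions were not called (29.5%, against 33.6% over all), and 2 of 33 set 1 regions were absent with TGF-β (6.06%, against 15.2%). With set 2, 21 of the 44 were not called (47.7%, against 53.6% over all), and 4 of 27 set 2 regions were absent with TGF-β (14.8%, against 10.3%). Between the siRNA sets, 12 of 33 set 1 regions had no overlap with set 2 (36.4%, against 44.3%), and 6 of 27 set 2 regions had none with set 1 (22.2%, against 15.6%). The share at the members was below the share over all regions in 5 of these 8 directions and above it in 3, on 2 to 21 member regions each. At equal list length, 10 regions were in the TGF-β list and not the untreated one and 7 the reverse. For set 1 against TGF-β these counts were then 8 for set 1 and 6 for TGF-β, for set 2 against TGF-β 13 and 5, and for set 1 against set 2 6 and 12, so the larger side turned in all 3 comparisons that involve an siRNA set. The share over all regions of the shortened lists is not given here, so this turn is not read as particular to the members. The comparisons with TGF-β all use the same TGF-β list.

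Promoters of 5 members were called without TGF-β, where 36.1% of all protein-coding genes had a called promoter. With TGF-β the promoters of 6 members were called, against 38.1% of genes, with set 1 those of 5, against 34.2%, and with set 2 those of 6, against 27.3%. The promoters of Etv4, Etv5, Ets1 and Gabpa were called in all 4 lists, that of Etv1 in 3, Ets2 in 2 and Elk1 in 1. Those of Etv6, Elk3 and Elk4 were in none of the lists, although all 3 loci had intronic regions. Over all protein-coding genes 23.7% had a promoter called in 4 lists and 57.4% in none.

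Etv4, which encodes a PEA3 activator and was targeted by both siRNA sets, had 5 regions in 65.6 kb. Its promoter held 28 fragments without TGF-β (1.83 FPM, interval 1.22 to 2.65), 46 with TGF-β (2.83 FPM, 2.07 to 3.77), 35 with set 1 (2.03 FPM, 1.41 to 2.82) and 27 with set 2 (1.31 FPM, 0.861 to 1.90). The value with TGF-β was the highest of all 4 and that with set 2 the lowest, and only the intervals of these 2 libraries did not overlap. On the log2 scale the FPM ratio was 0.63 ± 0.35 (counting SE) for TGF-β against untreated, -0.48 ± 0.32 for set 1 against TGF-β and -1.11 ± 0.35 for set 2 against TGF-β. The medians of all constant regions were 0.17, -0.26 and -0.71 in that order, and the intervals above are not adjusted for these shifts. On the authors' fold enrichment the log2 ratio of set 2 to TGF-β was -0.60, against a median of -0.40. The authors' fold enrichment, which is relative to the local background, was 9.60, 12.7, 10.8 and 8.39. Among the 10587 regions called in all lists, the Etv4 promoter stood at percentile 64.1 of FPM in untreated cells and 94.9 after TGF-β, and set 1 and set 2 placed it at 86.3 and 73.4, so its rank within the library was also highest with TGF-β. The ranks carry no counting error.

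The strongest distal region of the Etv4 locus lay 22.1 kb upstream of the gene (chr11:101807347-101807644) outside any Etv4 transcript and was called in all lists. It is printed on the minus strand, with capitals for the same motifs, because it combined AP-1, RUNX and Capicua letters.
Etv4 -22.1 kb: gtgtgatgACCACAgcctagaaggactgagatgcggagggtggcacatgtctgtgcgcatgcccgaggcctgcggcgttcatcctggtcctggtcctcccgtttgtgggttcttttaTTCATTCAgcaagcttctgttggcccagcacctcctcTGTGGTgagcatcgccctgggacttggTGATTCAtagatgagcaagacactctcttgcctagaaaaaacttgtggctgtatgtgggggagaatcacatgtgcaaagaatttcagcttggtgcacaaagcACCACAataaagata
The sequence held 3 RUNX matches, 1 AP-1 match (TGATTCA) and 1 match to the Capicua octamer on the opposite strand (TTCATTCA). It had 25 fragments without TGF-β (1.64 FPM, 1.06 to 2.42), 35 with TGF-β (2.15 FPM, 1.5 to 2.99), 38 with set 1 (2.20 FPM, 1.56 to 3.02) and 27 with set 2 (1.31 FPM, 0.861 to 1.90). The TGF-β and set 1 values were alike and the intervals of all 4 libraries overlapped. A region 28.1 kb upstream held 16 fragments without TGF-β, 25 with TGF-β and 22 with set 2 and was not called with set 1, where about 12 fragments were estimated to suffice for a call. A region that overlaps a coding exon 8.34 kb into the gene held 22, 18 and 16 fragments with TGF-β, set 1 and set 2 and was not called without TGF-β, and 1 region 45.0 kb upstream was called with TGF-β alone, at 16 fragments.

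Etv5, the other siRNA target, also had 5 regions. Its promoter held 29 fragments without TGF-β (1.90 FPM, 1.27 to 2.73), 37 with TGF-β (2.27 FPM, 1.60 to 3.13), 34 with set 1 (1.97 FPM, 1.36 to 2.75) and 31 with set 2 (1.5 FPM, 1.02 to 2.13). The intervals of all 4 libraries overlapped. The log2 ratio of FPM was 0.26 ± 0.36 for TGF-β against untreated, -0.21 ± 0.34 for set 1 against TGF-β and -0.60 ± 0.35 for set 2 against TGF-β. The last ratio was close to the -0.71 median of all constant regions, and on the authors' fold enrichment it was -0.13. Within the libraries the Etv5 promoter stood at percentile 69.0, 78.0, 83.6 and 88.4, so that its rank was highest with set 2, unlike that of Etv4. Counting error was not carried into these ranks. With set 2 the 31 fragments at Etv5 stood at 88.4 and the 27 at Etv4 at 73.4, so few fragments move a rank.

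The remaining Etv5 regions lay in introns and were called in 1 to 3 lists each. A region 50.4 kb into the gene (chr16:22389231-22389468) held 17 fragments with TGF-β (1.05 FPM, 0.609 to 1.67) and 31 with set 1 (1.79 FPM, 1.22 to 2.55), and was called in neither the untreated nor the set 2 list. With set 1 its fold enrichment of 12.9 was the highest of any Etv5 region. A region 5.01 kb into the gene, 1.80 kb from a second TSS, held 26 fragments without TGF-β, 20 with set 1 and 17 with set 2 and was missing only with TGF-β. The region 10.6 kb into the gene was called in the siControl libraries alone, with 21 fragments untreated and 17 with TGF-β, and a region 1.20 kb from the TSS was called with TGF-β alone, at 27 fragments.

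Etv1, the third PEA3 gene, had 4 regions. The promoter was reached at different places in different lists. A region 653 bases upstream of the 5′ end held 22 fragments with TGF-β and 21 with set 1, while set 2 had instead a region of 26 fragments at a TSS 0.896 kb downstream, and the untreated list had neither. An intronic region 9.43 kb into the gene held 25 fragments untreated, 17 with TGF-β and 20 with set 2 and was not called with set 1. The intronic region at 64.7 kb (chr12:38843852-38844245) was called in all lists, with 17 fragments untreated (1.11 FPM, 0.648 to 1.78), 22 with TGF-β (1.35 FPM, 0.847 to 2.05), 26 with set 1 (1.5 FPM, 0.983 to 2.21) and 22 with set 2 (1.06 FPM, 0.667 to 1.61). Its intervals all overlapped.

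**Figure D2:**
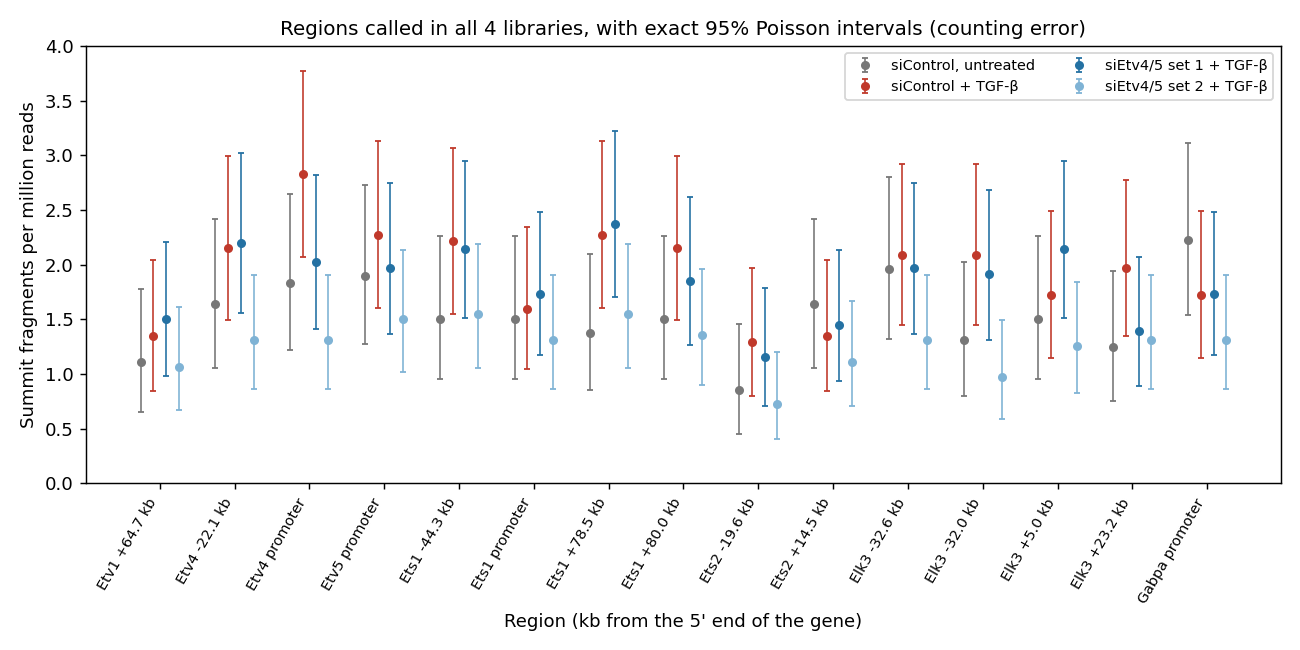
FPM at the 15 regions called in all 4 lists, 1 point per library with its exact Poisson interval of 95% (counting error only), ordered by gene and by distance from the 5′ end. The Etv4 promoter with TGF-β is the highest point at 2.83 FPM, and in none of the 15 regions is set 2 the highest library.

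Ets1, an activator that responds to ERK, had the most regions of the 10 loci, 11 in 172 kb. The annotated gene begins with transcripts outside the basic set, and the promoter region (chr9:32695632-32696044) lies 59.6 kb into it, at the first basic TSS. The promoter held 23 fragments untreated (1.5 FPM, 0.954 to 2.26), 26 with TGF-β (1.60 FPM, 1.04 to 2.34), 30 with set 1 (1.74 FPM, 1.17 to 2.48) and 27 with set 2 (1.31 FPM, 0.861 to 1.90). These values lay within each other's intervals. The fold enrichment of the promoter was 5.18, 5.68, 5.63 and 4.62, below that of the Etv4 promoter in each list. Beside it the local background at Ets1 was high, with a median of 14.0, 16.6, 15.2 and 21.5 reads per 10 kb and 1 M reads in the 4 libraries, against 8.38, 8.30, 8.10 and 8.13 over all regions, which lowers a ratio to the background.

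Intronic regions of Ets1 at 78.5 and 80.0 kb from the 5′ end of the annotated gene were called in all lists. The first held 21 fragments untreated (1.37 FPM, 0.851 to 2.1), 37 with TGF-β (2.27 FPM, 1.60 to 3.13), 41 with set 1 (2.37 FPM, 1.70 to 3.22) and 32 with set 2 (1.55 FPM, 1.06 to 2.19). The second held 23, 35, 32 and 28 fragments in the same order. In both, the untreated and set 2 values were the lowest. At the first, the log2 ratio of TGF-β to untreated was 0.73 ± 0.39, the highest of the 15 constant regions. Regions at 72.5 and 73.3 kb were called in the 3 TGF-β-treated lists with 25 to 35 fragments, and not in the untreated list, where 19 fragments were estimated to be needed. That estimate used the background of the treated lists. At the neighbouring 78.5 kb region the background was 231 reads per 10 kb untreated, against 339, 374 and 508 (not scaled for depth). The untreated limit may thus have been lower. A region 6.54 kb upstream was likewise called in the 3 TGF-β-treated lists, with 19, 30 and 31 fragments, while the region 44.3 kb upstream, whose nearest TSS is that of the ETS gene Fli1, was called in all 4 with 23, 36, 37 and 32.

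Ets2, the close relative of Ets1, had 5 regions. The region 19.6 kb upstream, which held 2 AP-1 matches and 1 ETS match in its 300 central bases, had 13 fragments untreated and 21 with TGF-β, and the siRNA sets 1 and 2 gave 20 and 15. The intronic region 14.5 kb into the gene held 25, 22, 25 and 23. Among all constant regions the upstream region ranked low in each library, at percentile 0.557 untreated, 9.95 after TGF-β, 13.3 for set 1 and 1.32 for set 2. A region 27.2 kb upstream was called with TGF-β (28 fragments) and set 2 (18 fragments) only. The Ets2 promoter was called untreated 340 bases downstream of the TSS and with TGF-β 187 bases upstream of it, at 22 and 16 fragments, and in neither siRNA list, where about 13 to 14 fragments were estimated to be needed.

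Etv6, a repressor of the family, had 4 intronic regions, 46.9, 54.5, 151 and 165 kb into the gene, and none at its promoter. All 4 were called with TGF-β and with set 1, 3 were called without TGF-β, and none was called with set 2. The region at 151 kb (chr6:134186367-134186597) is printed on the plus strand because it held 2 ETS and 2 RUNX matches within 231 bases, marked in capitals.
Etv6 +150.8 kb: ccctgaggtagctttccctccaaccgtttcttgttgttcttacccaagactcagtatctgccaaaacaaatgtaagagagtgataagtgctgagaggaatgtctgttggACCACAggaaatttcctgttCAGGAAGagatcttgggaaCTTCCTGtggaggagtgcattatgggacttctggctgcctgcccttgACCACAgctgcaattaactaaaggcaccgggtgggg
It held 13 fragments untreated (0.851 FPM, 0.453 to 1.46), 24 with TGF-β (1.48 FPM, 0.945 to 2.19) and 14 with set 1 (0.810 FPM, 0.443 to 1.36). The region at 54.5 kb held 18, 26 and 17 fragments and that at 165 kb held 17, 24 and 19, and the region at 46.9 kb held 17 with TGF-β and 16 with set 1. At each of the 3 regions called without TGF-β, the TGF-β value was the highest and the intervals of the 3 libraries overlapped. With set 2, 13 to 14 fragments, or 0.629 to 0.678 FPM, were estimated to suffice for a call at these places, so each region was below that level there. Over all regions 53.6% of the TGF-β list was not called with set 2, and 4 regions of 1 gene are few. At equal list length Etv6 had 1, 3, 1 and 0 regions.

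The ternary complex factor genes differed in their number of regions. Elk1 had 2, both called with set 2 alone: the promoter (chrX:20950609-20950763) with 16 fragments (0.774 FPM, 0.443 to 1.26) and a region 11.5 kb upstream, at the TSS of Uxt, with 18. In the other libraries 10 to 11 fragments, or 0.637 to 0.676 FPM, were estimated to be needed, which lies within the interval of both set 2 values. Elk4 had 2 regions, one 12.4 kb upstream with 16 fragments untreated and 19 with TGF-β, and one in an intron 3.21 kb into the gene with 23, 19 and 23 fragments with TGF-β, set 1 and set 2.

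Elk3 had 9 regions, of which 4 were called in all lists. The intronic region at 23.2 kb held 19 fragments untreated and 32 with TGF-β, while sets 1 and 2 had 24 and 27, and that at 5.01 kb held 23, 28, 37 and 26. The neighbouring regions 32 and 32.6 kb upstream held 20, 34, 33 and 20 fragments and 30, 34, 34 and 27 fragments. At 32 kb the log2 ratio was 0.68 ± 0.41 for TGF-β against untreated and -1.11 ± 0.41 for set 2 against TGF-β, whereas at the neighbouring 32.6 kb it was 0.09 ± 0.36 and -0.68 ± 0.37. The intervals of set 2 and TGF-β at 32 kb, 0.591 to 1.5 FPM and 1.45 to 2.92 FPM, overlapped only at their ends. The other 5 Elk3 regions were all called with TGF-β, 3 of them also with set 1 and 1 also untreated, and none with set 2.

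Gabpa, which serves housekeeping promoters, had its promoter region (chr16:84834844-84835123) called in all lists, next to the divergent gene Atp5j. The 81 bases upstream of the TSS are printed on the plus strand because they hold the strict form of the ETS motif, marked in capitals on the opposite strand (CTTCCGG).
Gabpa promoter: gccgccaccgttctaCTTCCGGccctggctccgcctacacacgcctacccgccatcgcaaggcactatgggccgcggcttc
The 300 bp around its summit held 3 ETS matches, 2 of them of the strict form CCGGAAG. In contrast to Etv4, the promoter of Gabpa had its highest value untreated, with 34 fragments (2.22 FPM, 1.54 to 3.11), and 28 with TGF-β (1.72 FPM, 1.14 to 2.49), 30 with set 1 (1.74 FPM, 1.17 to 2.48) and 27 with set 2 (1.31 FPM, 0.861 to 1.90). All intervals overlapped. The log2 ratio of TGF-β to untreated was -0.37 ± 0.37, the lowest of the 15 constant regions. Regions 34.8 and 17.2 kb upstream were called with TGF-β alone, at 19 and 18 fragments.

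**Figure D3:**
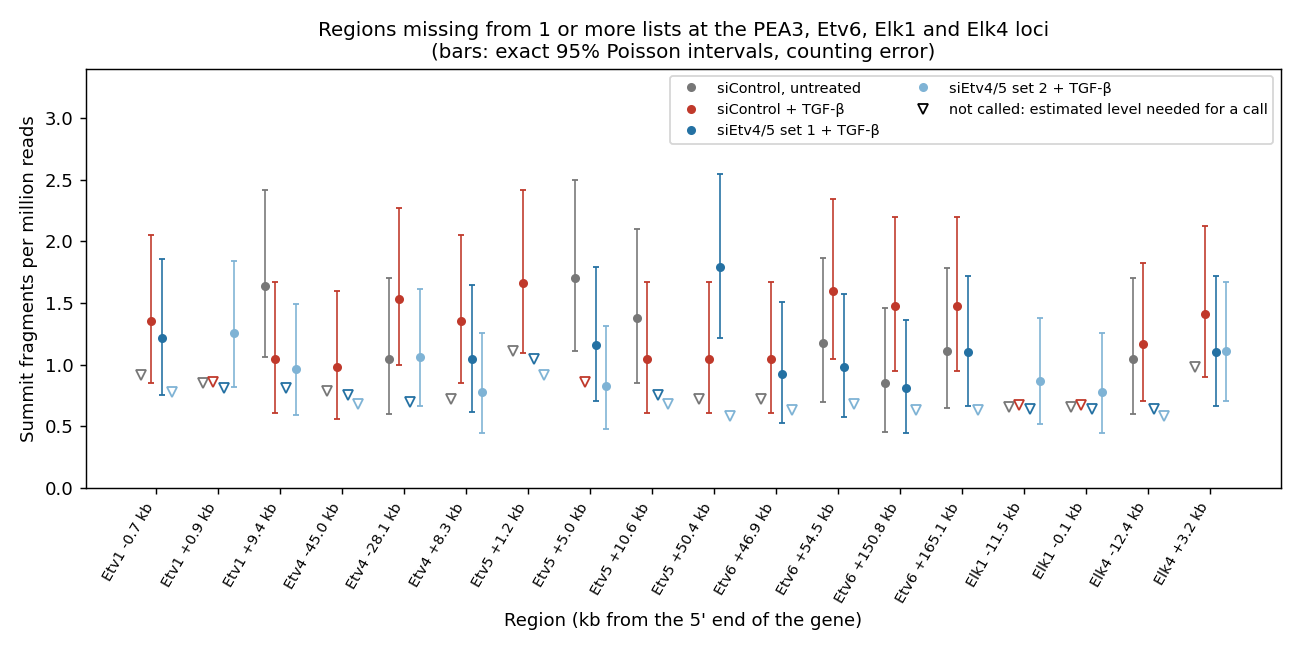
FPM of the regions missing from 1 or more lists at Etv1, Etv4, Etv5, Etv6, Elk1 and Elk4, with exact Poisson intervals of 95% for called libraries (points) and, for libraries without a call, the estimated FPM needed for a call (open triangles). All 4 Etv6 regions have a triangle for set 2, and the Elk1 points with set 2 lie just above the triangles of the other libraries.

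The 15 constant regions were then compared as a group. For TGF-β against untreated, their median log2 ratio was 0.40 (range -0.37 to 0.73) and 13 were above 0, while 68.4% of all 10587 constant regions were above 0. More than 1.5-fold higher were 5 of 15, against 12% of all, and 0 were more than 1.5-fold lower, against 1.62%. The 5 were the Etv4 promoter, the Ets1 region at 78.5 kb, the Ets2 region 19.6 kb upstream, and the Elk3 regions at 23.2 kb and 32 kb upstream. For each, the ratio was less than 2 counting SE from 0.

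For set 1 against TGF-β the median was -0.05 (range -0.50 to 0.32), 7 were above 0 and 8 below, and 0 passed 1.5-fold in either direction, against 0.538% higher and 16.2% lower over all. For set 2 against TGF-β all 15 were below 0, as were 97.2% of all constant regions, with a median of -0.59 (range -1.11 to -0.28). Of the 15, 8 were more than 1.5-fold lower, against 63.7% over all, and 0 higher, against 0.0472%. Relative to the median of all constant regions the members stood at 0.22 for TGF-β, while set 1 had 0.21 and set 2 had 0.12, so the sign for both siRNA sets turned with this scaling. All 3 comparisons use the TGF-β library, and a high value there makes the first ratio higher and the others lower. Between the sets, which do not share a library, set 1 was above set 2 in 15 of 15 regions with a median of 0.50, and in 91.2% of all constant regions with a median of 0.43.

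**Figure D4:**
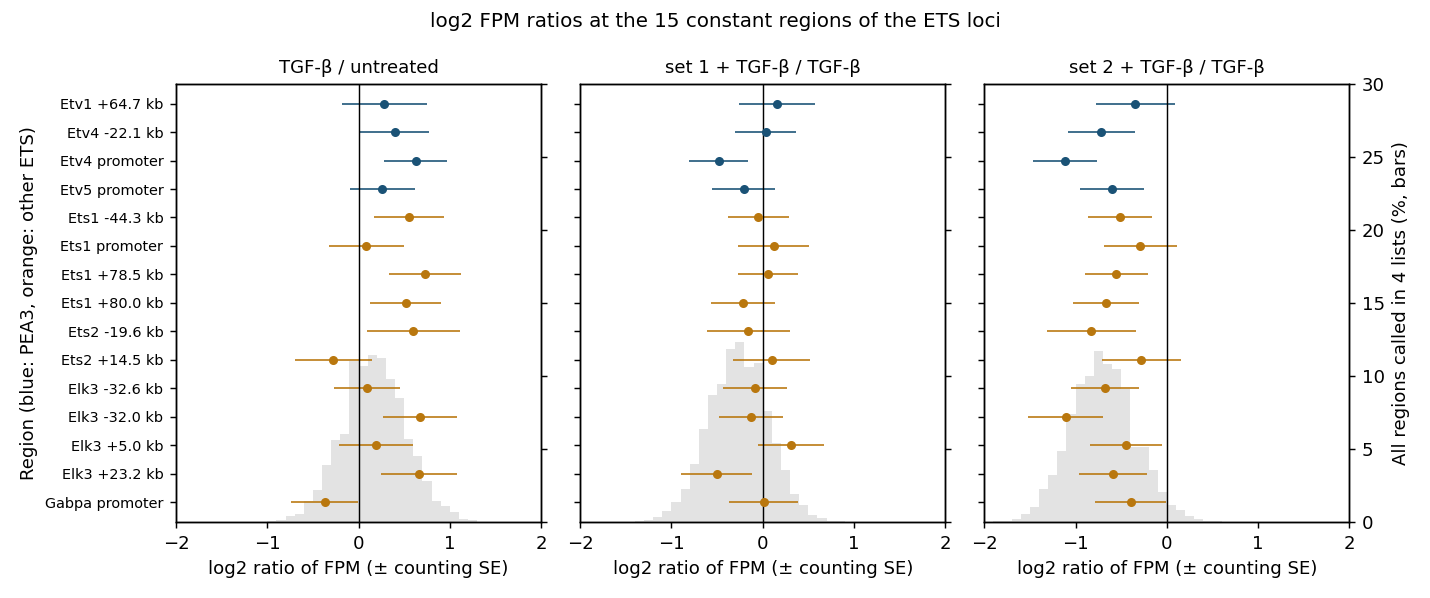
log2 ratios of FPM at the 15 constant regions (points, with counting SE; PEA3 genes blue, other members orange) for TGF-β against untreated, set 1 against TGF-β and set 2 against TGF-β, over the distribution of all 10587 constant regions (grey bars, percent, right axis). In the set 2 panel all 15 points and most of the grey distribution lie below 0. The Etv4 promoter and the Elk3 region 32 kb upstream are lowest, both at -1.11.

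Motifs were counted in the 50 merged regions and in 35789 regions of the assembled chromosomes, on both strands. The AP-1 motif TGANTCA, which reads nearly alike on both strands and was counted once per place, was in 25 of the 50, against 39.3% of all regions. Away from promoters it was in 24 of 38 member regions, against 50% of all such regions. The ETS motif CNGGAAG was in 10 (27.2% of all) and its strict form CCGGAAG, which it contains, in 1 (6.78%). The RUNX motif TGTGGT was in 9 (21.5%). The Capicua octamer TGAATGNA was in 9 of 50, against 3.52% of all regions. Of these 9, 7 were among the 14 regions of the PEA3 genes, 2 at Etv1, 3 at Etv4 and 2 at Etv5, and 2 were among the 36 regions of the other members, at the Ets1 promoter and 27.2 kb upstream of Ets2. The merged Etv4 promoter region held 4 octamers. In 300 bp around the summit 4 or more were found in 13 of 35789 regions.

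Other ETS genes and known regulators were counted from lists. Of 16 further ETS genes, 2 had a promoter called in all 4 lists, Elf2 and Elf3, and 10 in none. Among the ETS genes with a promoter in all 4 lists, the profile of fold enrichment nearest to that of Etv4 was Etv5 (Euclidean distance 0.592 on the log2 scale over 4 libraries), followed by Elf3 (0.610), and nearest to Etv5 were Elf2 (0.238) and Gabpa (0.443), of 5 genes compared. The strongest promoter region was taken in each list, which for Etv5 without TGF-β was the intronic region at 5.01 kb. With the Etv5 promoter region alone, Etv5 and Elf3 were nearly level in their distance to Etv4 (0.602 and 0.610), and the distances of Elf2 and Gabpa to Etv5 were 0.229 and 0.457. Counting error was not carried into these distances. At the Etv4 promoter alone, log2 ratios of FPM between libraries had a counting SE of 0.32 to 0.37. The order of the nearest genes is a description and was not tested. Of 11 regulators and partners, all had a promoter called in 1 or more lists and 4 in all 4. These 4 were Cic and Atxn1, which encode the Capicua repressor and its partner, Det1, a component of the ligase that degrades PEA3 proteins, and Srf, the partner of the ternary complex factors. The number called was 10 untreated and 8 with TGF-β, while sets 1 and 2 had 6 and 4, against 36.1%, 38.1%, 34.2% and 27.3% of all protein-coding genes in the same order. From untreated to TGF-β the count of regulators was thus lower and the share over all genes higher. Promoters called untreated and not with TGF-β held 14 to 17 fragments untreated, and that of Gabpb1, called with TGF-β alone, held 25. The difference rests on few calls in single lists and was not tested.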

How the data were processed

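The 4 groups of EpRas cells, harvested at day 4 for FAIRE-seq, were taken from the labels, with 1 list of regions each. The authors sequenced on an Ion Proton, aligned trimmed reads with bowtie2 (build mm10) and ran MACS2 (version 2.1.0 per the labels) with q < 0.0001 as the limit. In the deposited lists stand a fold enrichment (the ratio of summit to local background), p-value and q-value as −log10, and a score. The authors' tool makes that score from the q-value.

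Summit fragments and local background were solved from the deposited fold enrichment and p-value, which succeeded for 100% of regions. The depth was estimated from the background floor, the shortest region as fragment length and an effective genome of 1.87 Gb, and FPM are fragments per 1 M reads of it. The solving step recovered fragments in data simulated with the same formulas. That simulation checks the solving step only, and does not test the estimate of depth. The level needed for a call was estimated from the local background of the other libraries. Lists were merged by 1 bp of overlap. Genes came from GENCODE vM21 (basic transcripts) and sequences from GRCm38.p6, whose chromosomes contain all regions. All 10 members were described, by promoter region, regions called in all 4 lists and strongest region, the others by counts. Marker, ETS and regulator lists and the members were chosen with earlier results of these data known. Etv3l and Rfwd2 were not matched as symbols. Some genes of the marker and regulator lists are not reported here and were left out of the counts. Python 3.11.15, numpy 2.4.6, pandas 2.3.3, scipy 1.17.1 and pysam 0.24.0 were used. With 1 list per group no test across libraries was made. Alternatives were a stricter q-value, equal list length, other windows, promoter widths and overlaps, the authors' fold enrichment, another scaling and another motif window.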

Additional observations from a re-analysis of the deposited data

How the results depend on the processing

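Of 117 recomputed values, 98 stayed within 1.5 times the main count or within the spread of the member regions or genes compared, and 19 moved. With equal list length (14925 regions), the member regions called were 16 untreated, 19 with TGF-β and 21 with set 1, and the member promoters with TGF-β were 3. Regions without overlap then numbered 10 in TGF-β and 7 in untreated, 8 in set 1 and 6 in TGF-β, 13 in set 2 and 5 in TGF-β, and 6 in set 1 and 12 in set 2 for the pair of sets. The larger side turned in set 1 against TGF-β, set 2 against TGF-β and set 1 against set 2, and not in TGF-β against untreated. No share over all regions of the shortened lists is given beside these counts. With 100 kb upstream, the regions only in untreated and only in set 1 against TGF-β were 4 each. Scaled to the median of all constant regions, the median log2 ratio was 0.21 for set 1 and 0.12 for set 2 against TGF-β, and 0.064 for set 1 against set 2. On the authors' fold enrichment it was -0.30 for set 2 against TGF-β. The strict ETS motif was in 1 region. The promoter profile over 1 region per gene was added after seeing the data. A q-value below 1e-06 left all member counts as they were. The cause of the other shifts was not tested.

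No paired analysis was possible because each group has 1 list and the labels give no replicate numbers. No replicate could be left out for the same reason. Summits of members held 13 to 46 fragments, so that ratios carry a counting SE of 0.32 to 0.51 on the log2 scale, and smaller differences were not detectable at this depth. A region without a call has a level below the caller's limit and not a level of 0. Each library differs from the others in depth, list length and treatment together, which cannot be told apart with 1 list per group.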
